A study of Mus musculus with 95 samples.

Results

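White adipose tissue (WAT) of mice kept in a torpor-like state (TLS) was compared with WAT of control mice, gene by gene. The comparison rests on the 8 WAT libraries whose labels give the treatment as Stim, read as TLS from the series title, and the 7 labelled Con, which together are 15 of the 95 RNA-seq libraries of the series. All mice were of the inbred laboratory strain C57BL/6J. Control and TLS animals were 205 days old at collection, the latter after 3 months of TLS. The TLS group held 4 F and 4 M animals and the control group 4 F and 3 M animals. The 8 WAT libraries of time-0 mice, aged 122 days, are given as a further level and shared the estimate of spread. The remaining libraries come from cortex, kidney and liver of the same animals and of control animal 9BA4, which has no WAT library here. How TLS was induced, any allele or agent the animals carried and which fat depot was taken are not given in the sources used here. Each library is 1 animal.

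White fat stores triglyceride in large adipocytes and releases it as fatty acids when energy is short. Insulin favours fatty acid synthesis and storage there, whereas catecholamines and glucocorticoids favour lipolysis. Adipocytes also secrete hormones such as leptin, which reports the size of the fat stores. In torpor, mammals let metabolism and body temperature drop and live largely on stored fat. Besides adipocytes, the depot holds vessels, fibroblasts, macrophages, lymphocytes and often a lymph node, and it lies beside muscle, kidney or gonad, depending on the depot.

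Total counts ran from 15881766 to 29089492 in the TLS libraries, from 16312346 to 22485948 in the control libraries and from 16030216 to 22921038 in the time-0 libraries. Levels are counts per 1000000 (CPM), scaled by the composition of each library, and are compared between libraries for the same gene only. The sex labels matched the sex-linked genes in all 23 WAT libraries, with 0 mismatches, and no 2 WAT libraries held identical values. Between animals of a group, expression varied with a biological coefficient of variation of 0.39. In genes with a mean log2 CPM of 0 or more, the 95% interval of a log2 fold change reached a median of 0.398 to either side. The library numbers ran without overlap between the TLS and control animals, so library order and treatment cannot be told apart.

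The tissue label was checked against marker genes, and the TLS libraries were far less alike than the control libraries. All 9 white adipocyte markers were detected in both groups, with summed levels of 15500 to 51300 CPM in TLS and 25900 to 52800 CPM in control libraries. The lowest sum came from TLS animal A5DA, which also had the highest macrophage sum (12100 CPM for 25 markers, against 1440 to 3400 CPM in the other TLS libraries and 2280 to 3000 CPM in controls). Its neutrophil and mast cell sum was 2450 CPM, against at most 188 CPM in any other TLS library and at most 134 CPM in controls. Of the 16784 genes tested, 19.8% were highest and 21.9% lowest in this library among the 15. The next largest shares were 12.9% highest in TLS animal 47BE and 11.9% lowest in TLS animal B51B. Among control libraries the shares were at most 6.54% highest and 9.67% lowest, both in animal 5A66.

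Skeletal muscle genes marked another pair of TLS libraries. Ckm, the muscle creatine kinase, was at 823 CPM in TLS animal B51B and 122.6 CPM in TLS animal B4B9, against 0.0386 to 8.65 CPM in the other TLS libraries and 0 to 7.53 CPM in controls. Acta1, skeletal muscle actin, was at 1570 and 294 CPM in the same animals, against 7.53 to 158 CPM in the other TLS libraries and 35 to 186 CPM in controls. Tnnt3, fast troponin T, was at 863 and 138 CPM, against 0.517 to 12.5 CPM in the other TLS libraries and 0.731 to 11.8 CPM in controls. All 23 muscle markers had counts in both groups. Their sum was 8820 CPM in B51B, 1640 CPM in B4B9 and 67.9 to 326 CPM in the other TLS libraries, against 119 to 370 CPM in controls, where animal A123 was highest.

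Genes of kidney and epididymis appeared in TLS libraries as well. A list of 14 kidney genes, chosen after its values were seen, summed to 345 CPM in A5DA, 117 CPM in B23B, 113 CPM in B4B9 and 26.5 CPM in 47BE. It summed to 0.815 to 7.99 CPM in the other TLS libraries and to 1.37 to 9.96 CPM in controls, of which Nphs1 was at 0. Slc34a1, the proximal tubule phosphate transporter, was at 45.3, 35.1 and 45.2 CPM in the first 3 of these libraries and at most 1.61 CPM in controls. Epididymis and testis genes summed to 2920 CPM in 47BE and 349 CPM in E46E, both M animals, and to at most 0.345 CPM in the other TLS libraries. Of these 14 genes, 10 had 0 counts in all controls. Among time-0 libraries, T0_6 and T0_3 had 62900 and 54 CPM of this list and T0_8 had 92.7 CPM of the kidney list. T0_6 had a white adipocyte sum of 17600 CPM, against at least 38900 CPM in the other time-0 libraries. Its T and NK lymphocyte sum was 501 CPM, against at most 44.3 CPM in the others. T0_6 entered the estimate of spread, and no alternative left it out on its own. TLS animals B03E and DDF3 had muscle and kidney sums no higher than the controls and epididymis and testis sums of 0 and 0.345 CPM, against at most 0.244 CPM in controls. The other 6 TLS libraries are left out together where a value without all 6 is given. Only B03E (F) and DDF3 (M) then remain in the TLS group of WAT, so such values rest on few animals.

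**Figure D1:**
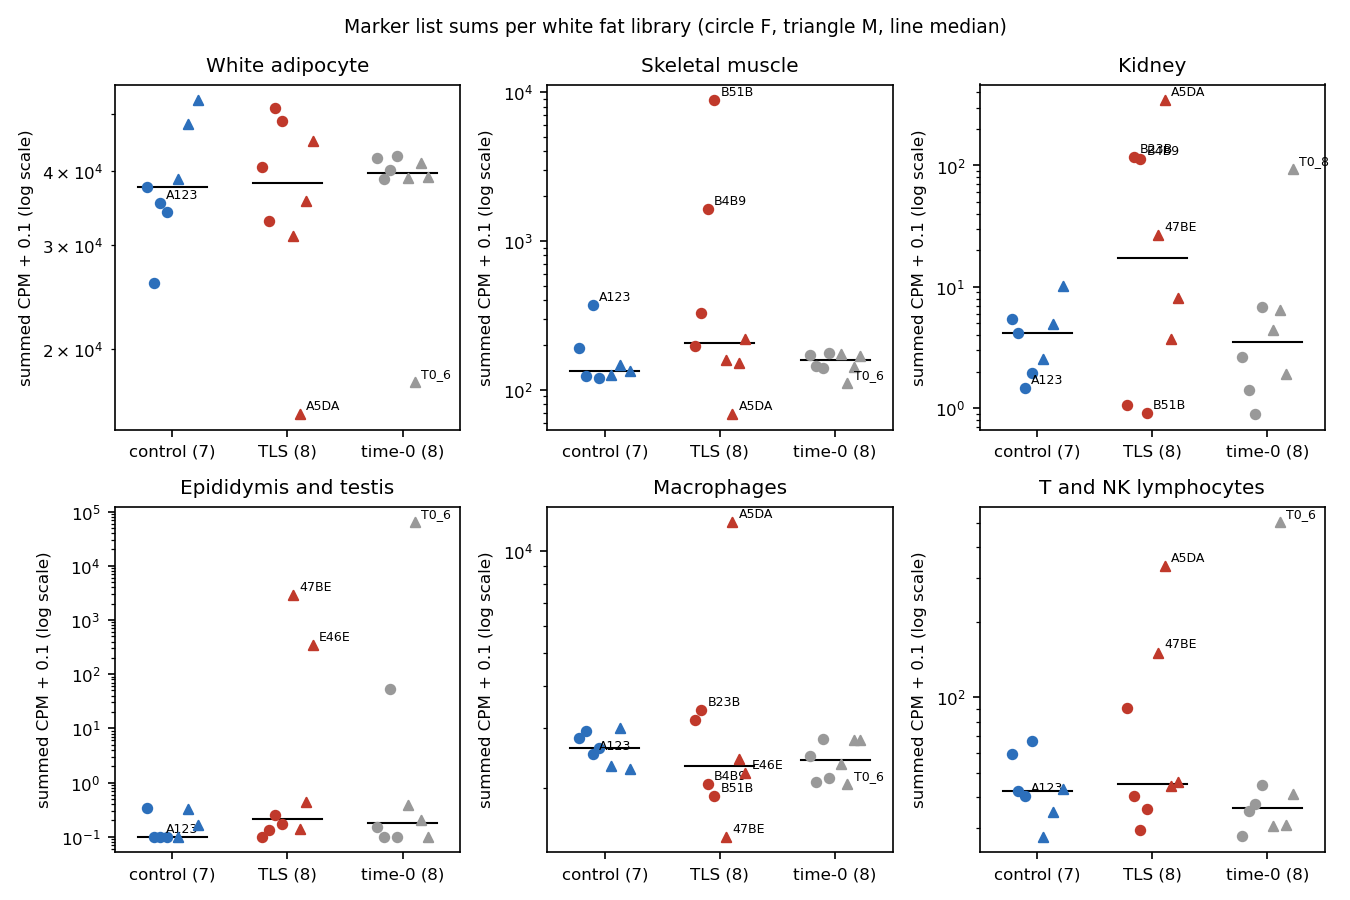
Summed CPM of 6 marker lists (log scale, 0.1 added) in each WAT library of the control (blue), TLS (red) and time-0 (grey) groups. Circles are F, triangles M and lines medians. The muscle sums of B51B and B4B9, the kidney sums of A5DA, B23B and B4B9, the epididymis sums of 47BE and E46E and the macrophage sum of A5DA stand above every control library.

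Across the 16784 genes tested, 1 gene passed an adjusted p of 0.05 (0.00596%). It was Serpina3k, which is made mainly in liver and belongs to a family of secreted serine protease inhibitors. Its level was 2.71, 11.3 and 47.9 CPM (lowest, median, highest) in TLS libraries and 0.697, 1.78 and 2.56 CPM in controls. The groups did not overlap, and the lowest TLS library (B23B) lay just above the highest control library (D215). Serpina3k rose by a log2 fold change of 2.87 ± 0.453 (SE; 95% interval 1.93 to 3.81; adjusted p = 0.034), higher in 8 of 8 TLS libraries than in any control. Time-0 libraries lay between, at 1.6, 3.03 and 8.6 CPM, and overlapped both groups. The log2 difference was 2.16 ± 0.562 in F and 3.69 ± 0.667 in M animals. The 2 highest libraries were 47BE and E46E, those with epididymis genes, and without both the difference was 2.40 with an adjusted p of 0.0502. Without the 3 libraries high in kidney genes it was 3.23 with an adjusted p of 0.0133. Leaving out control animal 983B, A367, A123, E329, 9916 or 5A66, or TLS animal B51B or B4B9, ended the call, with log2 differences of 2.71 to 2.99 and adjusted p-values of 0.0552 to 0.223. Over 33 alternatives, leaving out each TLS or control library included, the difference ran from 2.14 to 3.69 and 14 kept the call.

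Liver RNA was set beside Serpina3k because its level there is far above that of WAT, with a median of 7390 CPM over 24 liver libraries. Alb, the gene of serum albumin and among the most abundant liver messages, was at 0.487 to 37.8 CPM in TLS and 20.2 to 52.2 CPM in control WAT. The ratio of Serpina3k to Alb was 0.12 to 23.7 in TLS WAT, 0.0205 to 0.0879 in control WAT and 0.0183 to 1.05 in liver. In kidney the median of Serpina3k was 0.0176 CPM.

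The place of this gene in the genome limits how its count can be read. Serpina3k spans 104338486 to 104346144 on the plus strand of chromosome 12 (GRCm38, GENCODE vM21) and lies inside the annotated span of its paralog Serpina3m (104338486 to 104394257). Reads of closely similar family members could be split between them in ways that the sources used here do not describe. Serpina3m was at 5.1, 7.05 and 27.6 CPM in TLS and 2.92, 3.85 and 6.48 CPM in controls, a log2 difference of 1.11 ± 0.354 that was not called (adjusted p = 0.252). Serpina3f was at 2.89 ± 0.754 (adjusted p = 0.201). Serpina3n, the family member used as an acute phase marker in many tissues, was at 0.18 ± 0.287, with 213 to 752 CPM in TLS and 219 to 592 CPM in controls. Serpina3c was at -0.05 ± 0.191. Of members looked up after their values were seen, Serpina3i, Serpina3g and Serpina3j were at 2.23 ± 0.679, 2.06 ± 0.734 and 1.95 ± 0.86 (adjusted p = 0.233, 0.304 and 0.39), and Serpina3a and Serpina3b at 0.01 ± 1.47 and 0.15 ± 0.571. DESeq2 also called Serpina3f and Serpina3i, at 2.90 and 2.18 (adjusted p = 0.0097 and 0.0486). Differences between members were not tested.

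**Figure D2:**
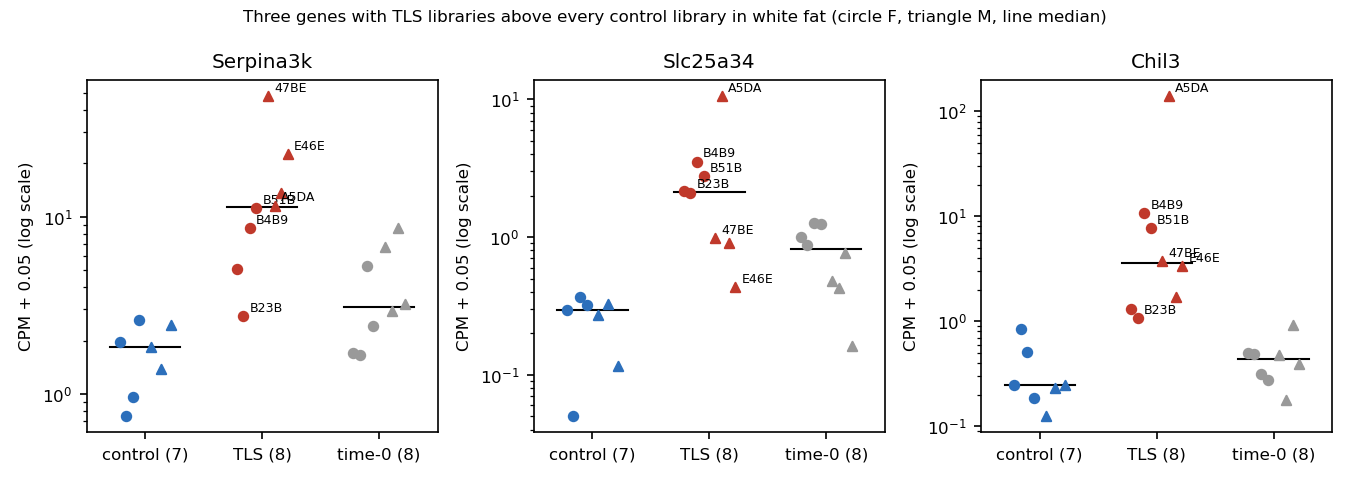
CPM (log scale, 0.05 added) of Serpina3k, Slc25a34 and Chil3 in each WAT library of the control, TLS and time-0 groups. Circles are F, triangles M and lines medians. Every TLS library lies above every control library for all 3 genes, and the highest values are 47.9 CPM for Serpina3k in 47BE and 10.5 and 140 CPM for Slc25a34 and Chil3 in A5DA.

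Behind Serpina3k came genes that missed the threshold, named here after their values were seen. Slc25a34, a mitochondrial carrier of the inner membrane, was at 0.386, 2.08 and 10.5 CPM in TLS and 0, 0.244 and 0.319 CPM in controls, with no overlap. At time-0 Slc25a34 was at 0.113, 0.772 and 1.21 CPM and overlapped both groups. Its log2 difference, taken against control levels near 0, was 3.87 ± 0.692 (95% interval 2.43 to 5.30; adjusted p = 0.0996). It was 3.57 ± 0.896 in F and 4.03 ± 1.05 in M animals. Slc25a34 passed without A5DA (2.91, adjusted p = 0.0203) and without E46E (4.01, adjusted p = 0.037). It did not pass without B51B and B4B9 (3.92, adjusted p = 0.225) or without the 6 libraries (2.78, adjusted p = 0.999). Chil3, a chitinase-like protein of alternatively activated macrophages and neutrophils, was at 1.02, 3.52 and 140 CPM in TLS and 0.0741, 0.195 and 0.797 CPM in controls. Its difference was 5.52 ± 1.09 (adjusted p = 0.104) and passed without A5DA, the library with the highest value, at 3.80 (adjusted p = 0.0162). Chil3 did not pass without B51B and B4B9 (5.71, adjusted p = 0.355) or without the 6 libraries (2.32, adjusted p = 0.999).

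Genes at lower levels in TLS came close to the threshold too. Dnmt3l, a cofactor of DNA methyltransferases, was at 0.424, 0.793 and 2.61 CPM in TLS and 2.92, 5.78 and 6.73 CPM in controls, with no overlap and a log2 difference of -2.18 ± 0.426 (adjusted p = 0.104). Ikbip was at -0.44 ± 0.0836, and 7 of 8 TLS libraries lay below every control. For Fbxo22, an F-box subunit of a ubiquitin ligase, the difference was -0.62 ± 0.12, again with 7 of 8 below. Cela1, an elastase, was at -1.07 ± 0.211 with 4 of 8 below. These 3 also had adjusted p-values of 0.104. Median levels of Cela1 were 21.1 CPM in TLS, 36.7 CPM in controls and 19.7 CPM at time-0. Adamts5, an aggrecan-cleaving metalloprotease of the matrix, was at 55.3, 205 and 426 CPM against 353, 458 and 657 CPM (-1.26 ± 0.325; adjusted p = 0.201), lowest in B51B, B4B9 and A5DA. Over all genes tested, 14 were higher in every TLS library than in any control (0.0834%) and 5 were lower (0.0298%). Of these 19 genes, Serpina3k was the only one called. At an unadjusted p below 0.05, 1098 genes were higher (6.54%) and 759 lower (4.52%) in TLS, which are the shares against which the lists below are read. The median log2 fold change over all genes tested was 0.04.

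No member of the 57 gene and marker lists, or of the added kidney list, was called. Among 18 adipocyte identity genes the median was -0.10, with 6 above and 12 below 0, and 1 was lower at an unadjusted p below 0.05. Adipoq, which encodes adiponectin, was at 935, 2960 and 4480 CPM in TLS and 2900, 3670 and 4440 CPM in controls (-0.35 ± 0.24; 95% interval -0.85 to 0.15). Its lowest value was that of A5DA, and without this library the difference was -0.20. Pparg, the master regulator of adipocyte differentiation, was at -0.19 ± 0.247. Nnat, an imprinted gene of adipocytes and endocrine cells, was at -1.18 ± 0.507 (adjusted p = 0.381).

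Lep, which encodes leptin, was at 107, 1260 and 3580 CPM in TLS and 1400, 2440 and 3910 CPM in controls. The log2 difference was -0.97 ± 0.514 (95% interval -2.04 to 0.09; adjusted p = 0.487). The range was wide within TLS: A5DA, B51B and B4B9 were at 107, 176 and 363 CPM, while DDF3 was at 3580 CPM. Without the 6 TLS libraries that carried muscle, kidney or epididymis genes, the difference was 0.12. In time-0 libraries Lep was at 653, 814 and 2550 CPM. Among the other adipokines, Retn (resistin) was at -0.20 ± 0.285 and Cfd (adipsin) at 0.13 ± 0.331. Rarres2, which encodes the chemoattractant chemerin, was at 153, 257 and 410 CPM against 297, 457 and 613 CPM (-0.71 ± 0.215; adjusted p = 0.233). The 19 adipokine genes tested had a median of -0.08.

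Genes of fatty acid synthesis had no common direction. The 23 tested had a median of 0.05, with 14 above and 9 below 0 and 2 higher at an unadjusted p below 0.05. Fasn, the fatty acid synthase, was at 83, 1940 and 12100 CPM in TLS and 870, 1770 and 6700 CPM in controls (0.05 ± 0.628; 95% interval -1.25 to 1.35). A5DA held its lowest and B51B its highest value, and time-0 libraries ran from 888 to 11000 CPM. A 2-fold difference in either direction lies within the interval. Acly, which makes cytosolic acetyl-CoA, was at -0.45 ± 0.504. Scd1, the desaturase of saturated fatty acids, was at 0.13 ± 0.444. Their regulators Srebf1 and Mlxipl were at 0.08 ± 0.22 and 0.25 ± 0.205, with intervals of -0.37 to 0.54 and -0.17 to 0.67. Elovl5, an elongase, was at 0.30 ± 0.136.

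Acacb, the acetyl-CoA carboxylase that restrains fatty acid entry into mitochondria, was at 44.8, 227 and 461 CPM in TLS and 16.1, 74.6 and 218 CPM in controls. Its difference was 1.5 ± 0.487 (adjusted p = 0.26), and 0.65 without the 2 libraries high in muscle genes. Angptl8, an insulin-induced inhibitor of lipoprotein lipase, was at 4.61, 10.3 and 43.6 CPM in TLS and 14.8, 35.7 and 170 CPM in controls. Of the TLS libraries, 6 lay below every control. The difference was -2.08 ± 0.45 (95% interval -3.01 to -1.14; adjusted p = 0.159). Without the 6 libraries it was -1.99 (adjusted p = 0.999), with B03E at 30.9 CPM, within the control range, and DDF3 at 4.92 CPM. Time-0 libraries had 4.17, 5.37 and 34 CPM, so the control median was the highest of the 3 groups. Slc27a1, a fatty acid transporter, was at 0.96 ± 0.284 (adjusted p = 0.221), and at 0.58 without the 2 libraries high in muscle genes. Its median was 726 CPM in TLS, 452 CPM in controls and 821 CPM at time-0. The 14 uptake genes tested had a median of -0.10.

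**Figure D3:**
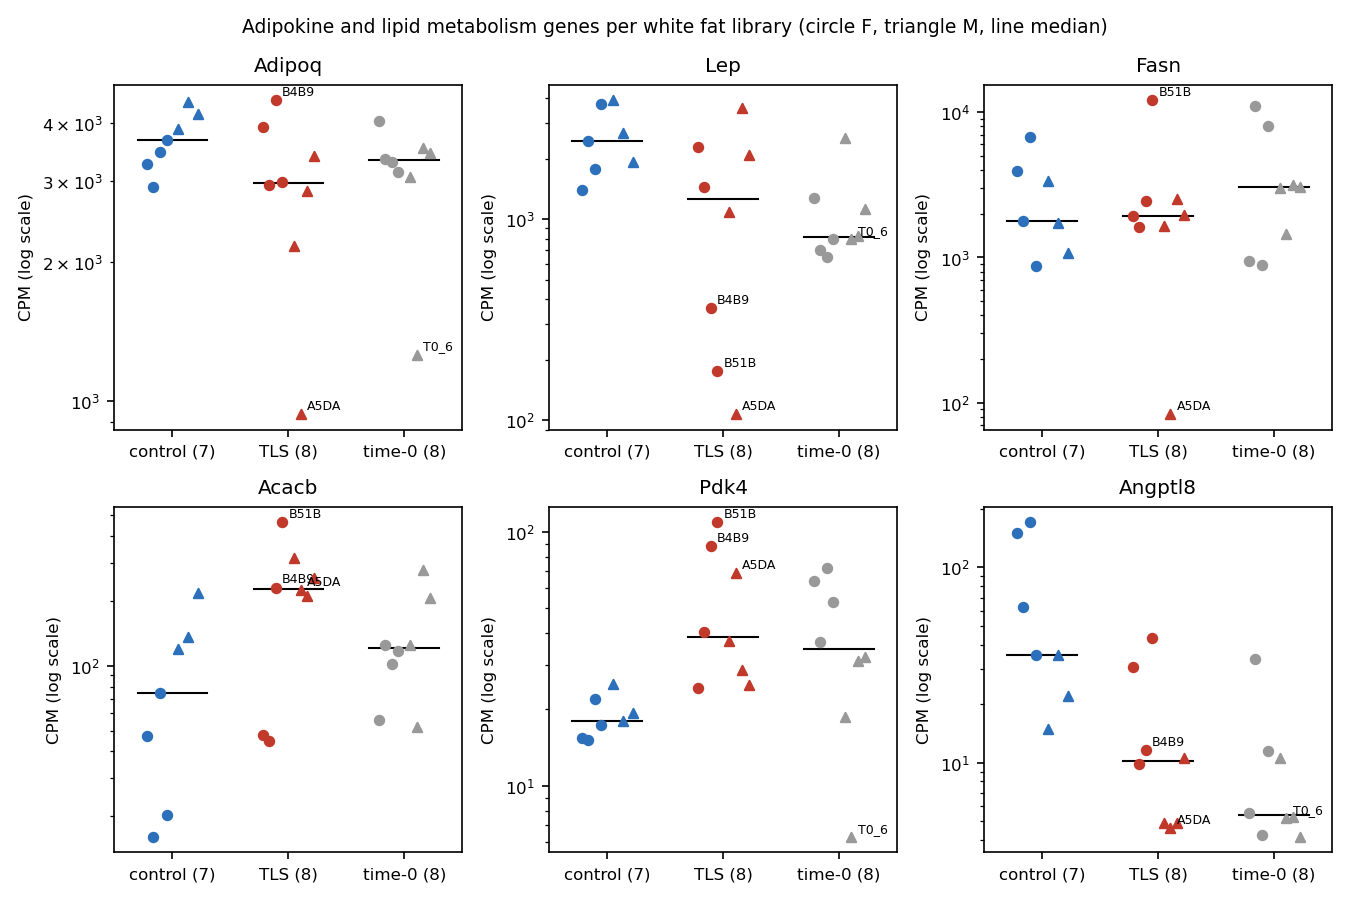
CPM (log scale) of Adipoq, Lep, Fasn, Acacb, Pdk4 and Angptl8 in each WAT library of the control, TLS and time-0 groups. Circles are F, triangles M and lines medians. Lep is lowest in A5DA, B51B and B4B9, Fasn spans 83 to 12100 CPM within TLS, and 6 of 8 TLS libraries lie above every control for Pdk4 and below every control for Angptl8.

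The 14 lipolysis and lipid droplet genes tested had a median of 0.04, with 8 above and 6 below 0. In F libraries only its median was 0.44, with 7 of 14 higher at an unadjusted p below 0.05, and in M libraries only it was -0.39, with 0 higher and 2 lower. Pnpla2, the first lipase of triglyceride breakdown, was at 1100, 2890 and 4510 CPM against 1260, 2220 and 2700 CPM (0.42 ± 0.239; 95% interval -0.08 to 0.91). Lipe, hormone-sensitive lipase, was at 0.04 ± 0.215, and G0s2, an inhibitor of Pnpla2, at -0.42 ± 0.224. Plin5, which couples lipid droplets to mitochondria, was at 0.74 ± 0.232 (adjusted p = 0.247), with 5 of 8 TLS libraries above every control. Hilpda, a hypoxia-induced lipase inhibitor, was at -0.48 ± 0.182. The adrenergic receptor gene Adrb3 was at 375, 536 and 751 CPM against 212, 620 and 1130 CPM (-0.10 ± 0.264). Npr3, which clears natriuretic peptides, was at -0.99 ± 0.513, and at -0.62 without the 2 libraries high in muscle genes. Pck1, which supplies glycerol for re-esterification, was at 0.43 ± 0.392 over both sexes. It was at 1.60 ± 0.409 in F and -0.71 ± 0.429 in M, a difference of -2.30 ± 0.59 that was not called (adjusted p = 0.187).

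Fatty acid oxidation genes lay mostly above 0, with 18 of 23 positive, a median of 0.17 and 5 higher at an unadjusted p below 0.05, which is 21.7% beside 6.54% of all genes. Pdk4, the kinase that turns off pyruvate dehydrogenase in fasting, was at 24.4, 38.7 and 109 CPM in TLS and 15.1, 18 and 25.1 CPM in controls. Of the TLS libraries, 6 lay above every control (1.43 ± 0.367; adjusted p = 0.201). At time-0 Pdk4 was at 6.31, 34.6 and 72.1 CPM, so its control median was the lowest of the 3 groups. B51B and B4B9, the libraries high in muscle genes, held its highest values, 109 and 87.7 CPM. Without them Pdk4 was at 1.08 and the list median was 0.01. Slc25a20, the carnitine carrier, was at 0.44 ± 0.166. Ehhadh, a peroxisomal enzyme, was at 0.64 ± 0.241, and at 0.34 without them. Skeletal muscle also expresses genes of this list, and whether muscle RNA accounts for these values was not tested.

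Of 14 brown and beige thermogenic genes tested, 4 were higher at an unadjusted p below 0.05 (28.6%, beside 6.54% of all genes), and the median was 0.15. Ucp1, the uncoupling protein, was at most 3.73 CPM in TLS (B23B) and 0.148 CPM in controls, and it did not pass the filter on low counts. Cidea, a droplet protein of brown fat, was at 0.524, 4.06 and 37.2 CPM against 0.448, 2.05 and 4.44 CPM (1.69 ± 0.788; adjusted p = 0.434). Ppargc1a, the coactivator of mitochondrial biogenesis, was at 0.72 ± 0.328. Cox8b, a cytochrome oxidase subunit of brown fat and muscle, was at 9.36, 24.1 and 198 CPM against 4.83, 11.4 and 15.5 CPM (1.81 ± 0.475; adjusted p = 0.201), highest in B51B. Without the 2 libraries high in muscle genes the list median was 0.02, with 2 of 14 higher and 1 lower, and Cidea, Ppargc1a and Cox8b were at 0.53, 0.37 and 1.06.

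Cirbp and Rbm3, which encode RNA-binding proteins induced by mild cold, were at 39.1 to 90.9 against 40.8 to 67.6 CPM and at 104 to 226 against 134 to 217 CPM. Their differences were 0.17 ± 0.252 (95% interval -0.35 to 0.70) and -0.23 ± 0.124 (-0.49 to 0.03). Of 20 clock genes, 3 were higher at an unadjusted p below 0.05 (15%, beside 6.54% of all genes). Among them, Arntl was at 0.80 ± 0.386 and Per1 at 0.36 ± 0.161, with adjusted p-values of 0.449 and 0.399. Without A5DA, Arntl was at 0.48. Dbp, a clock output factor, was at -0.01 ± 0.318. Igf1 was at 0.07 ± 0.195 and Col1a1, a collagen of fibrous matrix, at 0.53 ± 0.331 (0.23 without A5DA). Igfbp4, a carrier of insulin-like growth factors, was at 581, 997 and 1180 CPM against 1180, 1270 and 1480 CPM (-0.45 ± 0.15; adjusted p = 0.27), with 7 of 8 TLS libraries below every control. Other matrix genes were Timp4 at -1.19 ± 0.343, Thbs1 at -1.5 ± 0.466, Col3a1 at 0.53 ± 0.269 and Col6a5 at 1.05 ± 0.379 (0.56 without B51B and B4B9). Wnt10b, which holds back adipocyte formation, was at -1.18 ± 0.341 (adjusted p = 0.214). S100b was at 0.3, 2.45 and 7.93 CPM against 4.25, 10.7 and 13.5 CPM (-1.70 ± 0.413; adjusted p = 0.201). Bcat2, the mitochondrial aminotransferase of branched-chain amino acids, was at 0.95 ± 0.324, with its highest values in B51B and B4B9 (1150 and 789 CPM), and at 0.31 without them.

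Glucocorticoid response genes lay above the controls as a list without any member called by edgeR. Glucocorticoids are adrenal steroids that rise with stress and fasting and act through a nuclear receptor. Of 19 tested, 16 were positive, the median was 0.39, and 8 were higher at an unadjusted p below 0.05 (42.1%, beside 6.54% of all genes). Errfi1, a feedback inhibitor of growth factor receptors, was at 25.2, 63.8 and 120 CPM in TLS and 19.9, 25.3 and 44.4 CPM in controls (1.09 ± 0.252; adjusted p = 0.166), with 6 of 8 TLS libraries above every control. Ddit4, an inhibitor of mTOR signalling, was at 35.9, 45.6 and 123.2 CPM against 17.4, 33.7 and 40 CPM (0.86 ± 0.232; adjusted p = 0.201). Sgk1, a kinase, was at 0.69 ± 0.214. Fkbp5, a chaperone of the receptor, was at 36.7, 115 and 494 CPM against 26.2, 33.3 and 151 CPM (1.12 ± 0.317; adjusted p = 0.214). Fkbp5 was lower in F than in M controls, at 26.2 to 33.3 and 64 to 151 CPM, and within sex all TLS libraries but E46E lay above the highest control. The list median was 0.40 without A5DA, 0.29 without B51B and B4B9 and 0.18 without all 6 libraries. Time-0 libraries had Errfi1 at 28.3, 54.4 and 82.7 CPM, so the control median was the lowest of the 3 groups. It was also the lowest for Ddit4, Sgk1 and Fkbp5. Their medians were 45.6, 39.7 and 115 CPM in TLS, 33.7, 26.4 and 33.3 CPM in controls and 46.1, 38.8 and 70.8 CPM at time-0.

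Class I antigen presentation genes, which load and display peptides on the cell surface, were all positive. Of 16 tested, 11 were higher at an unadjusted p below 0.05 (68.8%, beside 6.54% of all genes), and the median was 0.68. H2-K1, a class I heavy chain, was at 964, 1370 and 2900 CPM in TLS and 571, 891 and 999 CPM in controls (0.87 ± 0.207; 95% interval 0.44 to 1.30; adjusted p = 0.194). Only 47BE among TLS libraries fell within the control range. Its level was 692, 940 and 1150 CPM at time-0. H2-Q7 was at 1.71 ± 0.434, H2-Q6 at 1.33 ± 0.358 and Tap1, the peptide transporter, at 1.24 ± 0.34, with adjusted p-values of 0.201 each. H2-Q genes are near-identical copies, and reads could be split between them. A5DA held the highest values, 2900 CPM for H2-K1, 300 CPM for H2-Q7 and 217 CPM for Tap1. Without it H2-Q7, H2-Q6 and Tap1 were at 1.02, 0.81 and 0.70. H2-K1 was at 0.64 and the list median at 0.35 without it, and without all 6 libraries they were at 0.72 and 0.41.

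**Figure D4:**
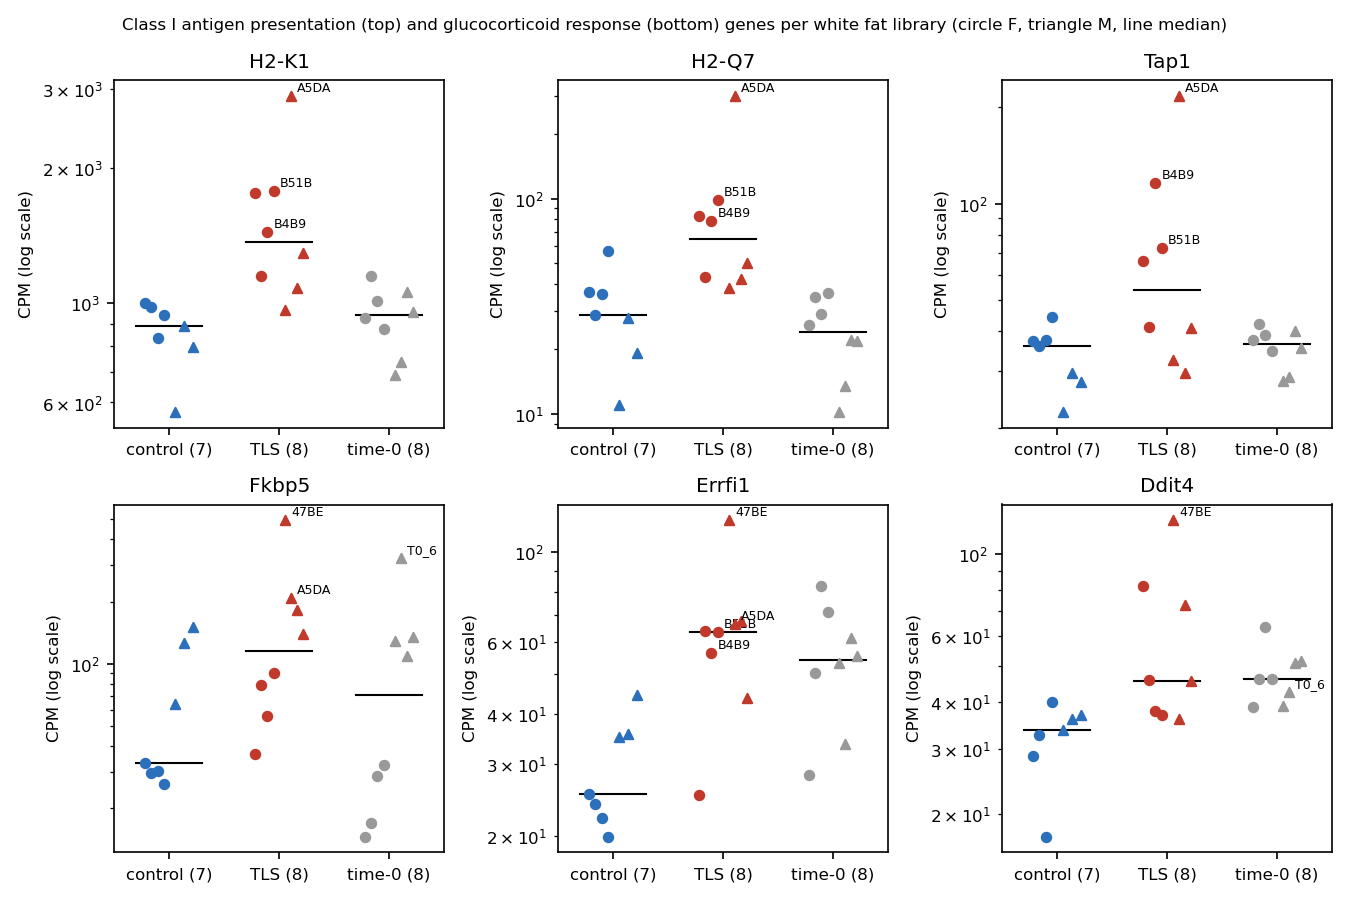
CPM (log scale) of H2-K1, H2-Q7 and Tap1 (class I antigen presentation) and Fkbp5, Errfi1 and Ddit4 (glucocorticoid response) in each WAT library of the control, TLS and time-0 groups. Circles are F, triangles M and lines medians. For H2-K1, 7 of 8 TLS libraries lie above every control, and A5DA is highest in the upper panels.

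Interferon response genes leaned the same way, with 36 of 39 positive, a median of 0.60 and 18 higher at an unadjusted p below 0.05 (46.2%). Igtp, an interferon-induced GTPase, was at 13.5, 31.1 and 155 CPM in TLS and 7.63, 18.2 and 21.6 CPM in controls (1.66 ± 0.426; adjusted p = 0.201). B4B9 and A5DA were highest, at 155 and 111 CPM, and DDF3, 47BE and E46E lay within the control range. Ifi47 was at 1.5 ± 0.408, Gbp6 at 1.18 ± 0.359 and Oas3, an antiviral nucleotide synthetase, at 1.64 ± 0.513. They were at 0.86, 0.72 and 0.81 without A5DA. The list median was 0.24 without A5DA and 0.01 without all 6 libraries.

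Medians of the lymphocyte, macrophage, inflammatory cytokine and class II lists were lower without A5DA. In bulk tissue, more cells of a type and more RNA per cell cannot be told apart. For 19 T and NK lymphocyte markers the median was 1.42 with A5DA and 0.40 without it, and the number higher at an unadjusted p below 0.05 was 12 of 19 and 0 of 18. Without all 6 libraries the median was 1.01. The macrophage list had medians of 0.40 and -0.16, the inflammatory cytokine list 0.57 and -0.15, the class II list 0.47 and -0.06 and the cell cycle list 0.41 and 0.11. S100a9, a neutrophil calcium-binding protein, was at 909 CPM in A5DA and at most 6.22 CPM in the other TLS libraries (5.56 ± 1.88; adjusted p = 0.272). Ccl5, a T cell chemokine, was at 4.99, 6.86 and 227 CPM against 2.09, 3.83 and 7.04 CPM (2.80 ± 0.824; adjusted p = 0.219). Ccl8, a monocyte chemokine, was at 1.71 ± 0.574. Without A5DA, S100a9, Ccl5 and Ccl8 were at 1.95, 0.97 and 0.70. Fcgr1 and Mpeg1, both of macrophages, were at 1.39 ± 0.513 and 1.07 ± 0.478, and at 0.33 and 0.20 without A5DA. Cd8b1 and Cd3e, of T cells, were at 1.96 ± 0.651 and 1.54 ± 0.594, and Cd3e was at 0.60 without A5DA.

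**Figure D5:**
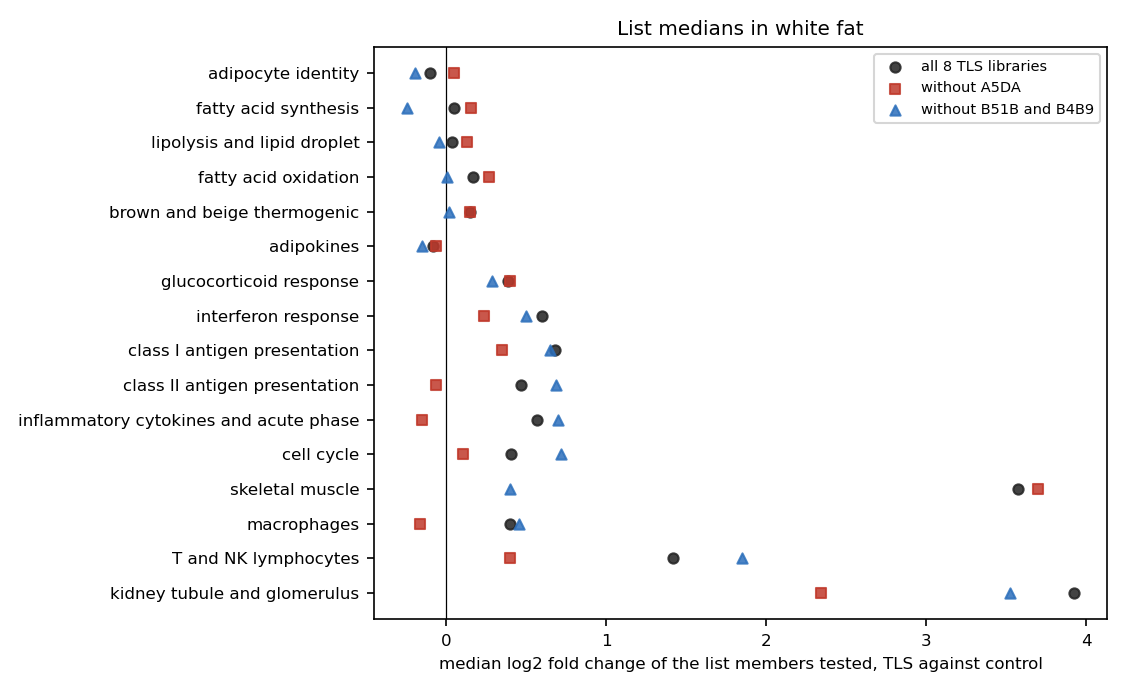
Median log2 fold change, TLS against control, of the tested members of 16 gene lists with all 8 TLS libraries (circles), without A5DA (squares) and without B51B and B4B9 (triangles). The lymphocyte, macrophage, class II and inflammatory medians shift towards or past 0 without A5DA, and the skeletal muscle median falls from 3.57 to 0.40 without B51B and B4B9.

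Skeletal muscle markers had the largest median of the lists other than the added kidney list, 3.57 over 19 tested, with 18 higher at an unadjusted p below 0.05. Ckm was at 6.17 ± 1.43 (adjusted p = 0.169), Tnnt3 at 4.35 ± 1.37 and Acta1 at 1.74 ± 0.632. Without B51B and B4B9 they were at 2.41, 0.22 and 0.37, and 0 of 17 markers were then at an unadjusted p below 0.05. Cyp2e1, a cytochrome P450 of liver and fat, was at 2350, 3400 and 11200 CPM against 726, 1760 and 3290 CPM (1.51 ± 0.413; adjusted p = 0.201), highest in the same pair of libraries, and at 0.83 without them. Lists of respiratory chain and ribosomal protein genes stayed near 0. The median was -0.05 for 44 nuclear-encoded respiratory chain genes, -0.05 for 13 mitochondrially encoded genes and -0.03 for 39 ribosomal protein genes. For 17 heat shock chaperones it was -0.12, with 5 above and 12 below 0.

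Whether TLS acted differently in M and F animals was tested for each gene, and 0 of 16784 passed with edgeR (0%), while 2563 had an unadjusted p below 0.05. DESeq2 called 1.31% of genes and limma 0.0119%. Slc25a20 had the smallest p. In F animals it was at 92.5 to 148 CPM in TLS and 52.4 to 65.9 CPM in controls. In M animals it was at 68.6 to 82.4 CPM in TLS and 81.3 to 92.2 CPM in controls. Its effect was 1.04 ± 0.138 in F and -0.23 ± 0.147 in M, a difference of -1.27 ± 0.201 (adjusted p = 0.0567). Bcl9, a cofactor of Wnt signalling, was at -0.49 in F and 0.61 in M (difference 1.10 ± 0.194; adjusted p = 0.0742). Cklf, Rab44 and Tia1 were likewise below 0 in F (-0.91, -1.01 and -0.48) and above 0 in M (0.92, 3.07 and 0.45), with differences of 1.83 ± 0.357, 4.08 ± 0.86 and 0.94 ± 0.199. Oaf, Coq3 and Acot7 were above 0 in F (0.28, 0.65 and 0.20) and below 0 in M (-0.77, -0.52 and -0.72), with differences of -1.05 ± 0.217, -1.17 ± 0.246 and -0.92 ± 0.196. These 6 genes had adjusted p-values of 0.161. The median of the fatty acid oxidation list was 0.60 in F and -0.41 in M libraries. B51B and B4B9, the libraries high in muscle genes, are both F, and A5DA is M.

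The TLS effect in WAT was then compared with its mean in cortex, kidney and liver, which asks where the effect in fat differed from that elsewhere. Control animal 9BA4 entered with the other tissues only. In the fit over 63 libraries, 83 of 20294 genes had a higher effect in WAT (0.409%) and 14 a lower one (0.069%). With the animal as a replicate block, 14 genes were called (0.069%), all of them among the 97. Leaving out 1 WAT library gave 53 to 170 called genes, with 59 without D215, 53 without 5A66, 62 without B4B9 and 170 without DDF3 or B03E. This comparison shares its WAT libraries with the comparison above. Slc25a34 had the smallest p (3.39 ± 0.488, adjusted p = 7.91e-05; 3.06 with the block, adjusted p = 0.00109). Its effects were 3.74 in WAT, 0.27 in cortex, 0.25 in kidney and 0.52 in liver. Without the 6 TLS libraries it was the only gene called, at 2.48 (adjusted p = 0.00716). Its control median in kidney was 44.5 CPM, far above the 0.241 CPM of control WAT, and A5DA, high in kidney genes, held its highest WAT value. B51B, B03E and DDF3, with kidney sums of 0.815, 0.953 and 3.58 CPM, were at 2.72, 2.11 and 0.862 CPM of Slc25a34, above every control. A kidney origin of this RNA was not tested.

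Most genes with a higher effect in WAT had a higher control level in kidney than in WAT. Of the 83, 56 had a control kidney median more than 10 times the control WAT median (67.5%, beside 8.99% of all genes tested), and 2 belonged to the skeletal muscle list. The highest WAT library of these 83 genes was 47BE for 32, B51B for 27, A5DA for 9, B4B9 for 7, B23B for 5 and E46E for 3. The kidney sums of 47BE and B51B were 26.5 and 0.815 CPM, against 113 to 345 CPM in B4B9, B23B and A5DA. In 47BE epididymis and testis genes summed to 2920 CPM, and in B51B muscle genes summed to 8820 CPM. Whether kidney, epididymis or muscle RNA accounts for these genes was not tested. Kcnj16, a potassium channel, was at 4.34 ± 0.699 (adjusted p = 0.000412), with 101 CPM in 47BE and at most 10.5 CPM in any other TLS library. Slc27a2, a fatty acid transporter of liver and kidney, was at 4.01 ± 0.65 (adjusted p = 0.000412), with 20 to 30.9 CPM in B23B, 47BE, B4B9 and A5DA and at most 2.98 CPM in the rest. Without the 6 libraries these differences were 1.74 and 0.51, and neither was called.

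Genes with a lower effect in WAT included Adamts5, Igfbp2, Uchl1 and Fbxo22. Adamts5 was at -1.30 ± 0.297 (adjusted p = 0.0205) and was the only lower gene called with the block, at -1.49 (adjusted p = 0.00238). Igfbp2, a carrier of insulin-like growth factors, was at -2.70 ± 0.603 (adjusted p = 0.0177; 0.203 with the block), with effects of -1.80 in WAT and 1.96 in kidney. Uchl1 was at -1.72 ± 0.397 and Fbxo22 at -0.57 ± 0.134 (adjusted p = 0.0215 and 0.0236), and neither was called with the block. For Serpina3k, whose median was 0.0176 CPM in kidney and 0 CPM in cortex, the fit gave no usable estimate (2.79 ± 71.2).

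The number of genes called in WAT depended on the test. With DESeq2 the same libraries gave 176 called genes of 16243 (1.08%), 114 higher and 62 lower. Of these, 13 were among the 19 skeletal muscle markers tested, 5 among the 16 class I antigen presentation genes and 2 among the 39 interferon response genes. From the kidney list, 0 were called. The glucocorticoid response genes Errfi1, Ddit4 and Fkbp5 were also among the 176, with DESeq2 adjusted p-values of 0.00743, 0.0366 and 0.0438. B51B held the highest value for 37 of the 114 higher genes, B4B9 for 24, A5DA for 23 and 47BE for 20. Among the 62 lower genes, A5DA held the lowest value for 28. The DESeq2 adjusted p was 3.26e-08 for Serpina3k, 0.002 for Angptl8, 0.00634 for H2-K1, 0.0151 for Pdk4 and 0.0169 for Adamts5. With limma on voom values and library weights, 0 genes were called and Serpina3k had an adjusted p of 0.0914. Without the 6 TLS libraries edgeR called 0 genes and DESeq2 called only Ddit4 (1.24, adjusted p = 0.0106), which was also among the 176.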

How the data were processed

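Polyadenylated RNA of perfused mice was sequenced, with 1 library per animal and tissue. The authors deposited raw counts per gene for 95 libraries, made with featureCounts per the file headers. Per the submitters' processing notes, STAR 2.7.10, DESeq2 and DESeq were used with mm10 (GRCm38). The strand used, the annotation counted and the meaning of the word corrected in the file's first line are not given in the sources used here. The table has 55401 rows with 55291 distinct symbols. Control animal 9BA4 has no WAT library among those analysed here. All columns of libraries were used or belong to other tissues, with 0 unmatched.

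All 23 WAT libraries were fitted with edgeR 4.0.16 (R 4.3.3, TMM scaling, filterByExpr with a minimum count of 10, robust quasi-likelihood test) with group and sex terms. A gene was called when its p, adjusted by Benjamini-Hochberg across every gene in the fit, was below 0.05. Standard errors come from the F statistic, and 95% intervals are per gene and not adjusted. The M and F difference used cells of group and sex. The tissue comparison used 63 libraries with cells of tissue and treatment plus sex per tissue, and the animal named in the titles as the block. Between tissues of 1 animal, deviations from group means had a mean correlation of 0.0462, against -0.0142 between different animals sharing group and sex. The tests were checked on simulated data with the same dispersion for every gene and no library that stands apart. That check does not cover libraries such as A5DA or those with muscle, kidney or epididymis genes. Alternatives included limma 3.58.1, DESeq2 1.42.0, other scalings and filters, and leaving out each TLS or control library of WAT. Called genes, up to 4 genes with the smallest p from each list and a fixed set of fat genes were named, along with genes said to be chosen after their values were seen. Some genes that this rule names are not reported here. The members and lists were chosen with earlier results of these data known. P-values measure the spread between these animals only.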

Additional observations from a re-analysis of the deposited data

Results flagged for a closer look

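The sums of 16 gene lists and the levels of 11 genes were examined in each group for a library far from the rest of its group, which chance alone gives in about 1 of 20 groups. Some of these lists and genes overlap, and some genes were chosen after their values were seen, so the cases are not independent. In 8 of the TLS cases a library stood apart, and it was A5DA in all 8. Its adipocyte identity sum was 24700 CPM (next 65600), its lipolysis and lipid droplet sum 6250 CPM (next 15100), its Adipoq 935 CPM (next 2170) and its Fasn 83 CPM (next 1620), the lowest of the TLS libraries. Its inflammatory cytokine sum was 16400 CPM (next 4900), its macrophage sum 12100 CPM (next 3400), its Chil3 140 CPM (next 10.7) and its S100a9 909 CPM (next 6.22), the highest. Among controls, A123 was apart in its skeletal muscle sum (370 CPM, next 189) and Tnnt3 (11.8 CPM, next 1.89), and 5A66 in H2-K1 (571 CPM, next 796).

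Effects of TLS that differed between WAT and the mean of the other tissues by the test of that difference were, as log2 values, 3.39 for Slc25a34, 4.34 for Kcnj16, 4.01 for Slc27a2, -2.70 for Igfbp2, -1.30 for Adamts5, -1.72 for Uchl1 and -0.57 for Fbxo22. With the animal as a replicate block, Igfbp2, Uchl1 and Fbxo22 were not called (adjusted p = 0.203, 0.11 and 0.0666). Without the 6 TLS libraries that carried muscle, kidney or epididymis genes, Slc25a34 was the only gene called.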

How the results depend on the processing

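The 1 gene called between TLS and control became 176 with DESeq2 and 2 without the 3 TLS libraries high in kidney genes. It became 0 with limma, without the sex term, with TLS and control libraries only, in F or M libraries only, with the muscle, B lymphocyte or nuclear RNA covariate, without the 2 libraries high in muscle genes and without all 6 libraries. Leaving out 1 library gave 0 to 3 (3 without A5DA, 2 without E46E). Genes with an M and F difference were 0% of those tested, but 1.31% with DESeq2, 0.0119% with limma and 0.00596% with RLE scaling, and 0 to 0.006% leaving out 1 library. The 97 genes of the tissue comparison became 14 with the animal as a replicate block, 61 with limma and no replicate block, 58 with no filter on low counts and 1 without the 6 libraries, and 53 to 170 leaving out 1 library. The animal block applies to that comparison only, because each animal gave 1 WAT library.

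Of 1524 values of the 85 genes followed over 18 alternatives, 1427 kept direction and side of the threshold, 56 reversed, 11 lost the call and 30 gained it. Serpina3k alone was called in the main fit, so all 11 lost calls were its own. For the other genes, keeping the side of the threshold means only that they stayed uncalled. None of the reversed values was called. The causes were not tested. Without the 6 libraries, Lep was at 0.12, Cfd -0.58, Fasn -0.14, Srebf1 -0.19, Npr3 0.08, Slc27a2 -0.05, Dbp 0.12, Cirbp -0.25, Ckm -0.8, Tnnt3 -1.72, Slc34a1 -0.87 and Serpina3c 0.2. In F libraries only, Adipoq was at 0.09, Retn 0.08, Adrb3 0.47, Pparg 0.1, Igf1 -0.12, Dbp 0.26, Serpina3n -0.07 and Serpina3c 0.3. In M libraries only, Cfd was at -0.47, Fasn -0.42, Srebf1 -0.13, Pck1 -0.71, Pnpla2 -0.18, Lipe -0.48, Cidea -0.18, Slc25a20 -0.23 and Tnnt3 -0.05. With the muscle covariate, Cfd was at -0.28, Fasn -0.83, Scd1 -0.34, Srebf1 -0.29, Pck1 -0.05 and Lipe -0.19. Without the 2 libraries high in muscle genes, Cfd was at -0.28, Fasn -0.57, Scd1 -0.12, Srebf1 -0.24 and Lipe -0.09. Without the 3 libraries high in kidney genes, Retn was at 0.04, Dbp 0.2, Slc34a1 -1.14 and Serpina3c 0.05. With the kidney covariate, Dbp was at 0.12, Slc34a1 -0.62 and Serpina3c 0.03. With limma, Fasn was at -0.11, Srebf1 -0.01, Dbp 0.08 and Serpina3c 0.09. Cfd and Lipe were both at -0.02 with the B lymphocyte covariate, Lipe at 0 with the nuclear RNA covariate, Igf1 at -0.02 without the 2 libraries with epididymis genes and Dbp at 0.01 without the sex term. Leaving out 1 library gave -0.25 to 0.07 for Adrb3, -0.06 to 0.4 for Cfd, -0.13 to 0.16 for Dbp, -0.55 to 0.3 for Fasn, 0 to 0.14 for Igf1, -0.06 to 0.18 for Lipe, -0.17 to 0.3 for Scd1, -0.11 to 0.08 for Serpina3c and -0.12 to 0.25 for Srebf1. The settings that leave out the 2, 3 or 6 libraries and the kidney covariate were chosen after seeing the data.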
